A study of Homo sapiens with 13 samples.

Results

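Deferasirox, an iron chelator taken by mouth in patients with iron overload, was compared with its solvent DMSO after 6 h in the established human colon cancer line SW480, whose cells carry a truncated APC tumour suppressor. The comparison rests on 7 of the 13 arrays of the series, chosen by their sample titles: 3 arrays of cells given Deferasirox at 50 mM and 4 arrays of cells given 0.1% DMSO. The remaining arrays held 4 samples treated with DFO (deferoxamine, a bacterial iron chelator in clinical use) at 100 mM and 2 treated with OICR623, known here by its code name, at 10 mM. All cells had been plated the day before, and were lysed at the end of these 6 h. The doses are those of the labels, are improbably high for cells in culture, and nothing in the labels settles whether a smaller unit was meant. Replicates were independent experiments by the design text, and all came from 1 cell line, so the spread is that between cultures of this line. RNA was labelled with biotin and hybridised to Affymetrix Human Gene 1.0 ST arrays, whose probes lie along the whole transcript, and values are deposited log2 signals, 1 per transcript cluster and array. A difference of 1 log2 unit is a 2-fold change.

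Iron is a cofactor of the prolyl hydroxylases (EGLN enzymes) that mark the alpha subunits of hypoxia-inducible factor (HIF) for destruction, so that chelators are a standard means of stabilising HIF in cells with oxygen. It is also required by ribonucleotide reductase, which supplies deoxynucleotides for DNA replication, by many dioxygenases that demethylate histones and DNA or hydroxylate collagen, and by iron-sulphur and heme proteins. Cells sense their iron through the iron regulatory proteins, which bind the mRNAs of transferrin receptor and ferritin.

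The medians of the 13 arrays lay at 3 separate levels, a high one (DMSO 1 and DFO 1), a middle one (8 arrays, with DMSO 2, DMSO 3, Deferasirox 1 and Deferasirox 2) and a low one (DMSO 4, DFO 4 and Deferasirox 3). No Deferasirox array lay in the high level, so DMSO 1 has no counterpart there and most of its signals stand above those of the other DMSO arrays. The level was therefore carried as a block in the limma fit, which was made over all 13 arrays. In that fit DMSO 1 enters Deferasirox minus DMSO only indirectly, through DFO 1 of the same level. The markers of intestinal epithelium (15 genes) had mean log2 signals of 7.88 to 8.87 on the DMSO arrays and 7.89 to 8.09 on the Deferasirox arrays, with KRT8 and KRT18, keratins of simple epithelium, among the brightest. The corresponding ranges for fibroblast markers were 5.71 to 6.23 and 5.69 to 5.70, for endothelium 5.78 to 6.17 and 5.75 to 5.89, and for leukocytes 5.66 to 6.42 and 5.65 to 5.84. None of these 27 markers of other cells was called different. Single markers spread widely and the lists overlapped. On the DMSO arrays the means of single markers ran from 5.02 to 13.07 for intestinal epithelium and from 3.36 to 8.36 for fibroblasts. They ran from 5.27 to 7.52 for endothelium and from 3.5 to 9.08 for leukocytes. The values carry no detection calls, so absence of a transcript cannot be read from them. In such bulk RNA, fewer cells of a kind and less RNA per cell cannot be told apart.

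After 6 h of Deferasirox the largest rise was that of DDIT4, a target of HIF, followed by ARRDC3 and ERRFI1, which are in neither HIF target list, and the 20 largest falls were all those of histone genes. Of 18404 genes, 1074 were called at an adjusted p under 0.05 (5.84%), 521 of them higher (2.83%) and 553 lower (3.0%). Most of these differences were small, with a median of 0.32 among the genes that rose and 0.31 among those that fell, and the smallest called was 0.15. A rise of more than 1 was seen for 26 genes, none of them a histone gene, and a fall of more than 1 for 35 genes, of which 33 were histone genes. The other 2 were BAMBI (-1.10) and OXGR1 (-1.04). Without a block the same arrays gave 43 calls (0.234%; 18 higher and 25 lower), all of them among the 1074, while 307 genes had an unadjusted p under 0.05 by limma. The count of 1074 fell to 546 without Deferasirox 3, to 712 without Deferasirox 2 and to 589 without DMSO 4, and every one of the 1074 genes kept its sign in these 3 fits. Those genes were called on these same arrays, so the agreement in sign is no independent check.

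**Figure D1:**
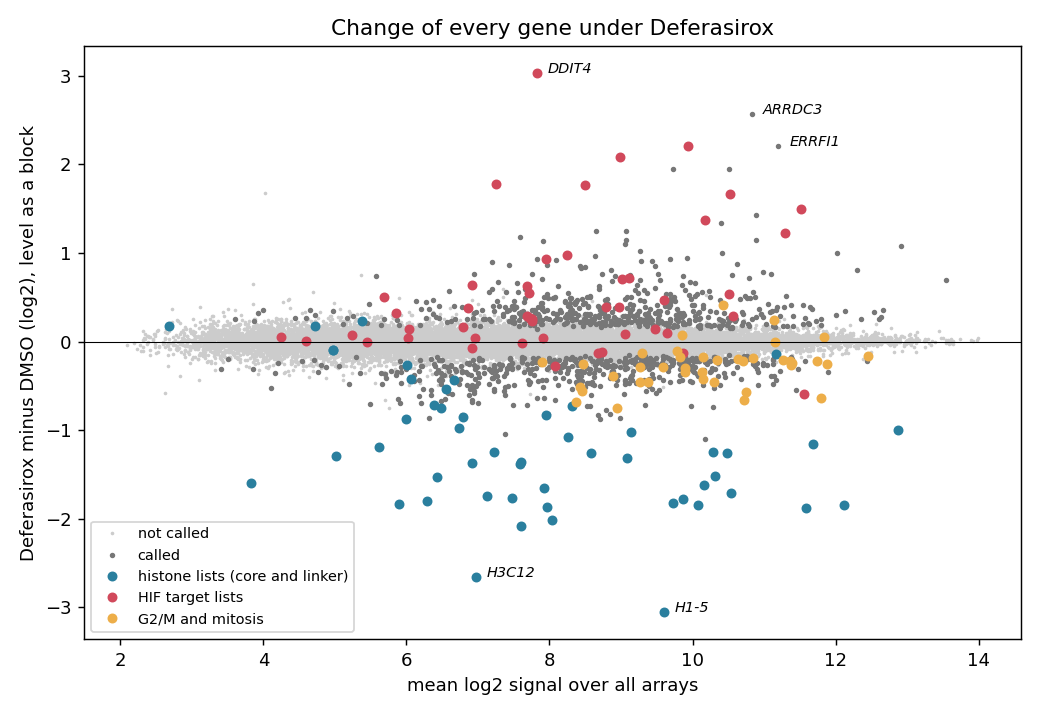
Each point is a gene, with its mean log2 signal over all arrays on the x axis and its difference, Deferasirox minus DMSO on the log2 scale with the level as a block, on the y axis. Called genes (limma, adjusted p under 0.05) are dark grey and 3 groups of lists are coloured. DDIT4 stands highest at 3.03 and the linker histone gene H1-5 lowest at -3.05, and the histone lists fill most of the space below -1.

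The highest rise was that of DDIT4, which encodes an inhibitor of mTOR complex signalling induced by hypoxia and stress. Its log2 signals were 6.51, 5.69, 5.82 and 5.60 on DMSO arrays 1 to 4 and 8.73, 8.74 and 8.90 on Deferasirox arrays 1 to 3. Every Deferasirox array lay more than 2 units above the highest DMSO array. The fitted rise was 3.03 (SE 0.12; limma, adjusted p = 3.9e-07), or 8.17-fold. ARRDC3, an arrestin-domain adaptor that brings membrane receptors to degradation, read 9.64, 9.10, 9.10 and 9.0 in DMSO and 11.69, 11.77 and 11.58 in Deferasirox. This rise of 2.57 (SE 0.06, 5.95-fold; adjusted p = 5.5e-09 by limma) had the smallest adjusted p of all genes. ERRFI1, which dampens EGF receptor signalling once it is active, read 10.43, 9.78, 9.64 and 9.56 in DMSO and 11.90, 11.94 and 12 in Deferasirox, and rose by 2.21 (SE 0.11). The DMSO and Deferasirox values of these 3 genes did not overlap, and all 3 rises were also called without a block.

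Most of the secreted HIF targets measured rose. Among 19 measured, 12 were called higher and 0 lower, against 2.83% called higher of all genes, and their median difference was 0.38 against 0.00 over all genes. ADM, the precursor of the vasodilator adrenomedullin, had signals of 9.29, 8.15, 8.33 and 8.49 in DMSO and 10.53, 10.56 and 10.74 in Deferasirox (rise 2.20, SE 0.12, adjusted p = 2.4e-06, limma). VEGFA, the principal growth factor for blood vessels, read 8.30, 7.37, 7.38 and 6.88 in DMSO and 8.98, 9.08 and 9.06 in Deferasirox (1.76, SE 0.12). Neither gene's groups overlapped, although DMSO 1 came closest to the treated arrays in both. IGFBP3, which binds insulin-like growth factors outside the cell, spread more: it read 8.78, 7.81, 7.76 and 6.86 in DMSO and 9.57, 9.70 and 9.74 in Deferasirox. Its rise of 2.08 carried an SE of 0.22 and amounted to 1.85 in the middle level and 2.88 in the low one. ANGPTL4, an inhibitor of lipoprotein lipase, rose by 1.78 (SE 0.13), LOXL2, a collagen cross-linking oxidase, by 1.37 (SE 0.11) and the vascular peptide gene APLN by 0.98 (SE 0.10). Smaller rises were called for STC2 (0.70), EDN1 (0.64), PDGFB (0.63), STC1 (0.33), CCN1 (0.29) and SPAG4 (0.38), a nuclear envelope protein that the list also holds. The calls of STC1 and CCN1 were lost without 2 and 5 of the 7 arrays (adjusted p up to 0.065 and 0.23, limma). Leaving out any 1 array gave 10 to 12 secreted targets higher, while 4 were called without a block.

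Of 28 HIF targets that act inside the cell, 15 rose and 2 fell (60.7% called, against 5.84% of all genes, median 0.26). NDRG1, a stress-responsive protein known for its induction by iron loss, read 11.13, 10.55, 10.42 and 10.42 in DMSO and 11.99, 11.99 and 12.07 in Deferasirox, and rose by 1.5 (SE 0.08). BHLHE40, a transcriptional repressor that also acts in the circadian clock, rose by 1.67 (SE 0.06, adjusted p = 2.2e-07 by limma). Its signals were 10.07, 9.35, 9.22 and 9.36 in DMSO and 11.01, 10.97 and 11.03 in Deferasirox. For BNIP3L, a mitophagy receptor, the DMSO values of 11.55, 10.45, 10.28 and 10.22 met the Deferasirox values of 11.66, 11.69 and 11.55, since DMSO 1 stood as high as Deferasirox 3. The fit gave a rise of 1.22 (SE 0.13) with the block, and the rise of 1.01 without it was not called (adjusted p = 0.49, limma). ANKRD37 (0.93), INSIG2, which restrains sterol synthesis (0.71), the carbonic anhydrase gene CA12 (0.55), the lipid droplet gene PLIN2 (0.54) and the chemokine receptor gene CXCR4 (0.47; call lost without any of 5 arrays, adjusted p up to 0.092 by limma) rose less. Without a block 3 of the 28 were called. The members that fell were TXNIP (-0.60), a thioredoxin-binding inhibitor of glucose uptake, and BHLHE41 (-0.28), a close relative of BHLHE40. The call of TXNIP was lost without Deferasirox 3 (adjusted p = 0.053, limma). One list member commonly used as a hypoxia marker, BNIP3, differed by 0.00 (95% interval -0.16 to 0.16).

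The promoters of 3 of these genes show where letters of the HIF core motif lie in genes that rose by more than 2 units. They are the 250 bases before the RefSeq transcript start in GRCh38.p14, written along the gene's strand, with ACGTG and GCGTG on either strand in capitals. DDIT4 is on chr10:72273674-72273923 (plus strand), ADM on chr11:10304823-10305072 (plus strand) and IGFBP3 on chr7:45921273-45921522 (minus strand).
DDIT4: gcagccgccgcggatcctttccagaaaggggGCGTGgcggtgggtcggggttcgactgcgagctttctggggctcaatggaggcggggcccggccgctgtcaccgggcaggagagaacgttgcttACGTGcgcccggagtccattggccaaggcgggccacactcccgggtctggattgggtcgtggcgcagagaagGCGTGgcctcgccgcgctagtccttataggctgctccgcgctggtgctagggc
ADM: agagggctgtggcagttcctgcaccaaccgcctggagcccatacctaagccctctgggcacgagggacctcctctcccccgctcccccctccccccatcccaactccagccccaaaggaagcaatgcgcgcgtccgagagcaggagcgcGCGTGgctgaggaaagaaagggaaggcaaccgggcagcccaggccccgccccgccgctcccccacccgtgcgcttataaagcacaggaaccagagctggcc
IGFBP3: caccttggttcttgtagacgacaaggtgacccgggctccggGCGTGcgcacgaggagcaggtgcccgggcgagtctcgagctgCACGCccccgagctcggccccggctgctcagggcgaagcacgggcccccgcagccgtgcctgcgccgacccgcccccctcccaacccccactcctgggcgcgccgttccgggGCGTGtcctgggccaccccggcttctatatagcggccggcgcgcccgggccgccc

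DDIT4 holds 3 such matches, 1 of ACGTG and 2 of GCGTG, ADM holds 1 of GCGTG and IGFBP3 holds 3 of GCGTG. RefSeq promoters were found for 38 of the 50 listed HIF targets, 55 promoters in all. Either motif was present in 83.6% of them, and in 84.0% of the 25 promoters of members called higher, against 43.2% of all 35116 promoters of the same length. ACGTG is also contained in the E-box CACGTG, and a match is a string of letters, not a measured binding site.

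**Figure D2:**
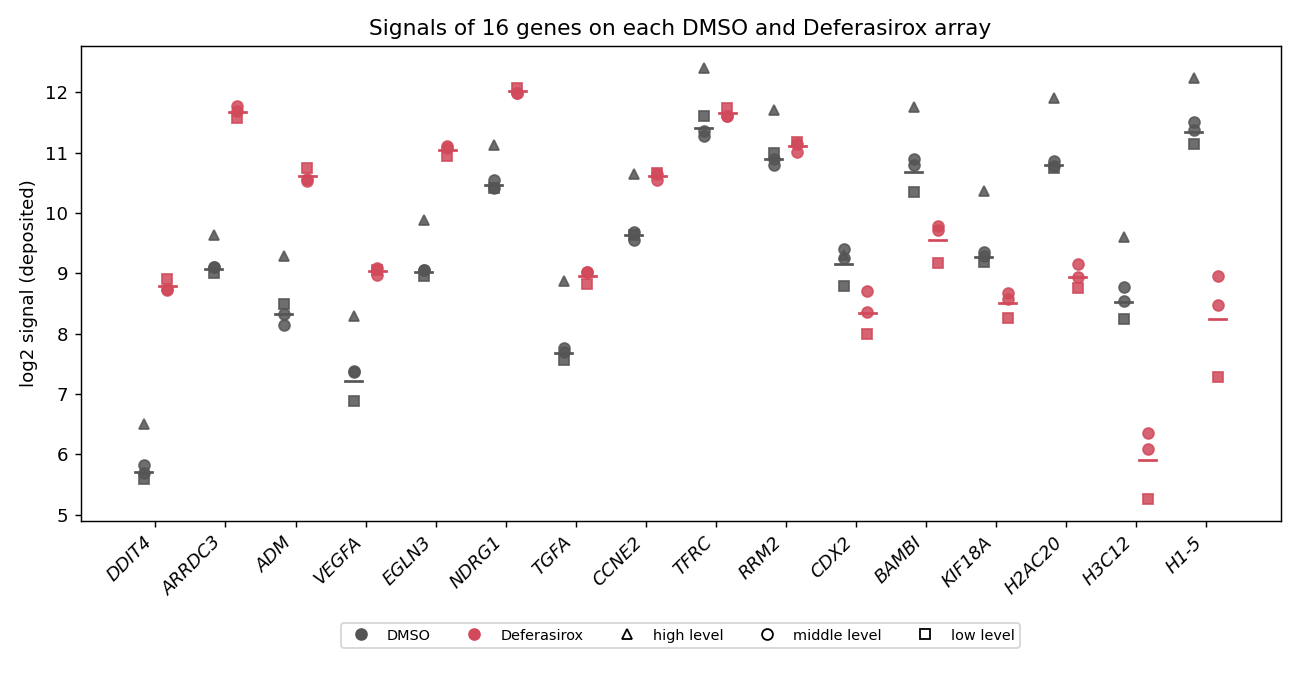
Deposited log2 signals (y axis) of 16 genes (x axis) on the 4 DMSO arrays (grey) and 3 Deferasirox arrays (red), with the shape of a point giving the level of its array. Short bars are means over the arrays of the middle and low levels. DMSO 1, the only high-level array plotted, reaches the Deferasirox values of TGFA and CCNE2, but not those of DDIT4 (6.51 against 8.73 to 8.90) or ARRDC3.

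The mRNAs of the HIF subunits did not pass the test. HIF1A differed by 0.00 (95% interval -0.11 to 0.12), EPAS1, which encodes the HIF-2 alpha subunit, by 0.09 (0.00 to 0.17) and the partner ARNT by -0.01 (-0.09 to 0.07). Of 11 measured subunits and hydroxylases, EGLN3 and EGLN1 were the 2 that rose (18.2% called, against 5.84% of all genes). Both encode HIF prolyl hydroxylases that are themselves HIF targets. EGLN3 read 9.88, 9.05, 9.05 and 8.96 in DMSO and 11.11, 11.08 and 10.94 in Deferasirox, a rise of 1.94 (SE 0.11, adjusted p = 2.4e-06 by limma). EGLN1 rose by 0.30 (SE 0.05), and this call was lost without Deferasirox 3 (adjusted p = 0.063, limma).

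Of 31 measured genes of sugar uptake and glycolysis, 11 were called higher and 1 lower (38.7% called, against 5.84% of all genes), with a median of 0.14. The glucose carriers SLC2A3 and SLC2A1 rose by 1.07 (SE 0.12) and 0.69 (SE 0.06). PFKFB3 and PFKFB4, enzymes that make an activator of phosphofructokinase, rose by 1.03 (SE 0.10) and 0.93 (SE 0.12). ENO2, an enolase, rose by 0.76, PDK1, which blocks entry of pyruvate into the mitochondrion, by 0.66, and the hexokinase gene HK2 by 0.58. The counteracting phosphatase gene PDP1 fell by 0.54 (SE 0.08). The lactate dehydrogenase gene LDHA differed by 0.12 (95% interval 0.03 to 0.20, adjusted p = 0.11 by limma), ALDOA by 0.14 (0.05 to 0.23) and ENO1 by 0.02 (-0.06 to 0.10), and none of these 3 was called. Among 32 subunits of the respiratory chain 0 were called in either direction, and their differences lay between -0.05 and 0.15. None of the glycolysis genes was called without a block.

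Among 33 iron-dependent histone demethylases, TET enzymes and ALKBH enzymes, KDM3A and KDM7A were the 2 called, both higher. This share of 6.06% is close to the 5.84% called of all genes. KDM3A, which demethylates lysine 9 of histone H3, read 9.21, 8.19, 8.06 and 8.15 in DMSO and 9.23, 9.28 and 9.47 in Deferasirox. DMSO 1 lay just below the treated arrays and the other DMSO arrays about 1 unit below them, for a fitted rise of 1.14 (SE 0.09). KDM7A rose by 0.50 (SE 0.07). Of 19 collagen hydroxylases and lysyl oxidases (15.8% called), P4HA1 (0.91, SE 0.07) and P4HA2 (0.41, SE 0.06), catalytic subunits of collagen prolyl hydroxylase, rose along with LOXL2, and 0 fell.

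Of 30 measured genes of iron handling itself, 3 rose and 2 fell (16.7% called, against 5.84% of all genes). The 3 became 0 without Deferasirox 3 and 1 without Deferasirox 2, DMSO 2 or DMSO 4. TFRC, the transferrin receptor that brings iron into cells, read 12.41, 11.36, 11.27 and 11.61 in DMSO and 11.61, 11.61 and 11.74 in Deferasirox. The groups overlapped, and the fit gave a rise of 0.23 (SE 0.05, adjusted p = 0.023, limma). That call was lost when any of 5 of the 7 arrays was left out, with adjusted p values up to 0.084. The difference was 0.29 in the middle level and 0.14 in the low one. STEAP3, an endosomal iron reductase, rose by 0.31 (SE 0.06; call lost without Deferasirox 3 or DMSO 4, adjusted p up to 0.051), and BMP6, an inducer of hepcidin, by 0.18 (call lost without any of 5 arrays, up to 0.16). FBXL5, the iron-sensing subunit that degrades iron regulatory protein 2, read 11.14, 10.80, 10.82 and 10.35 in DMSO and 10.25, 10.31 and 9.87 in Deferasirox, below DMSO in each shared level, and fell by 0.50 (SE 0.06). SLC40A1, the iron exporter ferroportin, fell by 0.43 (SE 0.06). The ferritin light chain gene FTL differed by -0.05 (95% interval -0.22 to 0.13) and SLC11A2, a divalent metal importer, by -0.13 (-0.27 to 0.01). In the heme and iron-sulphur list of 31 (12.9% called), ALAS1, the first enzyme of heme synthesis, rose by 0.33 (SE 0.06), ISCA1 by 0.24, and NFS1 and FLVCR1 fell by 0.22 and 0.21. The calls of ALAS1 (without Deferasirox 3, adjusted p = 0.062), ISCA1 and FLVCR1 (each without 6 of the 7 arrays, up to 0.16 and 0.17 by limma) did not hold when single arrays were left out. FLVCR2, a transporter of the FLVCR family outside that list, rose by 1.14 (SE 0.11), with 7.94, 7.10, 7.24 and 7.19 in DMSO and 8.19, 8.54 and 8.38 in Deferasirox.

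Of 26 genes for ribonucleotide reductase and deoxynucleotide supply, RRM2 alone was called (3.85%, against 5.84% of all genes). RRM2, the iron-bearing small subunit, read 11.71, 10.89, 10.79 and 11 in DMSO and 11.01, 11.15 and 11.17 in Deferasirox. These groups overlap, and the fitted rise of 0.20 (SE 0.05, adjusted p = 0.040, limma) was lost in 6 of the 7 fits that left out an array, with adjusted p values of up to 0.15. The large subunit RRM1 differed by 0.06 (95% interval -0.05 to 0.17) and the p53-induced subunit RRM2B by -0.11 (-0.25 to 0.04).

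Of 44 genes of G1/S and replication 10 rose and 0 fell (22.7% called, against 5.84% of all genes), with a median of 0.08. The cyclin E genes, whose products drive entry into S phase, led them: CCNE2 read 10.64, 9.69, 9.56 and 9.64 in DMSO and 10.55, 10.64 and 10.67 in Deferasirox, and CCNE1 read 9.11, 7.70, 7.64 and 7.90 in DMSO and 8.50, 8.40 and 8.94 in Deferasirox. DMSO 1 lay among the treated arrays for CCNE2 and above all of them for CCNE1. In both, the other 3 DMSO arrays lay below all treated arrays, and the fitted rises were 1.00 (SE 0.05) and 0.85 (SE 0.07). The repressor E2F7 rose by 0.55, the activators E2F2 and E2F1 by 0.29 and 0.26, and the replication licensing gene CDC6 by 0.27. The calls of E2F2 and E2F1 were lost without 4 and 5 of the 7 arrays (adjusted p up to 0.13 and 0.16, limma). The count of 10 fell to 4 without Deferasirox 2, Deferasirox 3 or DMSO 4, to 5 without DMSO 3, to 6 without DMSO 2, to 2 in the middle level alone and to 0 without a block. Of 39 genes of G2/M and mitosis, 24 fell and 2 rose, against 3.0% called lower of all genes, with a median of -0.25. KIF18A, a kinesin that aligns chromosomes, fell by 0.75 (SE 0.07), the kinetochore motor CENPE by 0.68 (SE 0.09), and the mitotic kinases AURKA and PLK1 by 0.66 (SE 0.08) and 0.63 (SE 0.06). BORA, which activates PLK1 and is outside the list, fell by 0.81 (SE 0.08). The 2 that rose were UBE2C (0.41), a ubiquitin-conjugating enzyme of mitotic exit, and MYBL2 (0.24). Without Deferasirox 3 the 24 became 13, without DMSO 4 they became 15, and without a block 0 were called.

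The replication-dependent histone genes, whose mRNAs are made in S phase and end in a stem-loop in place of a poly(A) tail, fell together. Of 45 measured core histone genes 40 fell and 0 rose (88.9% called, against 5.84% of all genes), with a median of -1.30. All 8 measured H3 genes fell (median -1.85), as did 11 of 12 H2A genes (-1.45), 12 of 14 H2B genes (-1.24) and 9 of 11 H4 genes (-1.03). The linker histone gene H1-5 read 12.24, 11.37, 11.50 and 11.14 in DMSO and 8.48, 8.96 and 7.29 in Deferasirox. No treated array came within 2 units of a DMSO array, and the fitted fall was 3.05 (SE 0.22, 8.31-fold; limma, adjusted p = 1.8e-05). H3C12 read 9.61, 8.77, 8.54 and 8.24 in DMSO and 6.09, 6.36 and 5.26 in Deferasirox and fell by 2.65 (SE 0.12). H3C1 fell by 2.08 (SE 0.11) and H1-2 by 2.01 (SE 0.11). H1-4 fell by 0.99 and H1-3 by 0.42. For H2AC20 the signals were 11.91, 10.78, 10.86 and 10.75 in DMSO and 8.94, 9.15 and 8.75 in Deferasirox (-1.82, SE 0.08). The 7 core and linker genes not called were H2AC13, H2BC1, H2BC12, H4C6, H4C7, H1-1 and H1-6. H2BC12, at a mean of 11.41 in DMSO, differed by -0.14 (95% interval -0.32 to 0.05), and H4C6 by -0.26 (-0.42 to -0.11, adjusted p = 0.057 by limma). Leaving out any 1 array gave 38 to 41 core histone genes lower, the middle level alone 38, and the fit without a block 22. Histone genes of one class are nearly identical in their coding sequence, so that single genes may share signal on the array.

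The promoters of 3 histone genes that fell by more than 2 units are given to set beside those of the HIF targets. Capitals mark CCAAT, ATTTGCAT (the octamer of H2B promoters) and TATAAA on either strand. H1-5 is on chr6:27867589-27867838 (minus strand), H3C1 on chr6:26020201-26020450 (plus strand) and H1-2 on chr6:26056471-26056720 (minus strand), again as the 250 bases before the RefSeq start in GRCh38.p14.
H1-5: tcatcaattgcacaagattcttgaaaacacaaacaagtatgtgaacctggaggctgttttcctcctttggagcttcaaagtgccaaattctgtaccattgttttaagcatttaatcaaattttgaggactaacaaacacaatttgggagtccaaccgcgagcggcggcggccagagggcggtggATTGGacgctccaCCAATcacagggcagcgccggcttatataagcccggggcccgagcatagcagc
H3C1: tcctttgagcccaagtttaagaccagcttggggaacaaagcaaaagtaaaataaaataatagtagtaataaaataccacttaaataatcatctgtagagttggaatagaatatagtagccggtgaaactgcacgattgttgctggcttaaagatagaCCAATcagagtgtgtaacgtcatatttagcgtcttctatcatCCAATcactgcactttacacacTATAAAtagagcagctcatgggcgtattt
H1-2: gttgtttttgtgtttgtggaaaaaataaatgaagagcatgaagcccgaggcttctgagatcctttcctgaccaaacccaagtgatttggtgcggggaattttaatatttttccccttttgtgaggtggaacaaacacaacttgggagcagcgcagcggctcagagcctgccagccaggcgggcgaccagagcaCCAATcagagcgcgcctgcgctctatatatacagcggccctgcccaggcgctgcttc

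H1-5 holds 2 CCAAT matches, H3C1 holds 2 and a TATAAA, and H1-2 holds 1 CCAAT. In the 63 promoters of core and linker histone genes CCAAT was found in 85.7% and TATAAA in 66.7%, against 32.0% and 10.7% of all promoters. ATTTGCAT was found in 77.8% of 18 H2B promoters and in 1.6% of all. ACGTG or GCGTG was present in 20.6% of the histone promoters.

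Of 10 genes listed as histone variants not tied to replication 2 fell, H2BC21 by 0.64 (SE 0.08) and H2AX by 0.24 (SE 0.04). Both have transcripts known to end in a stem-loop as well as in a poly(A) tail, so the name of the list does not strictly hold for these 2. The other 8 were not called. H2AZ1 differed by 0.03 (95% interval -0.13 to 0.18). Among 30 genes for the transcription, processing and decay of histone mRNA, CCNE1 and SLBP rose and ASF1A fell (10.0% called, against 5.84% of all genes). SLBP, which binds the histone stem-loop, read 10.97, 10.02, 9.99 and 9.95 in DMSO and 10.14, 10.21 and 10.15 in Deferasirox and rose by 0.17 (SE 0.04), a call lost in all 7 fits that left out an array (adjusted p up to 0.18, limma). The histone chaperone gene ASF1A fell by 0.23 (SE 0.05), a call lost without any of 5 arrays (up to 0.13). NPAT, the coactivator of histone transcription, differed by 0.05 (-0.09 to 0.19).

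**Figure D3:**
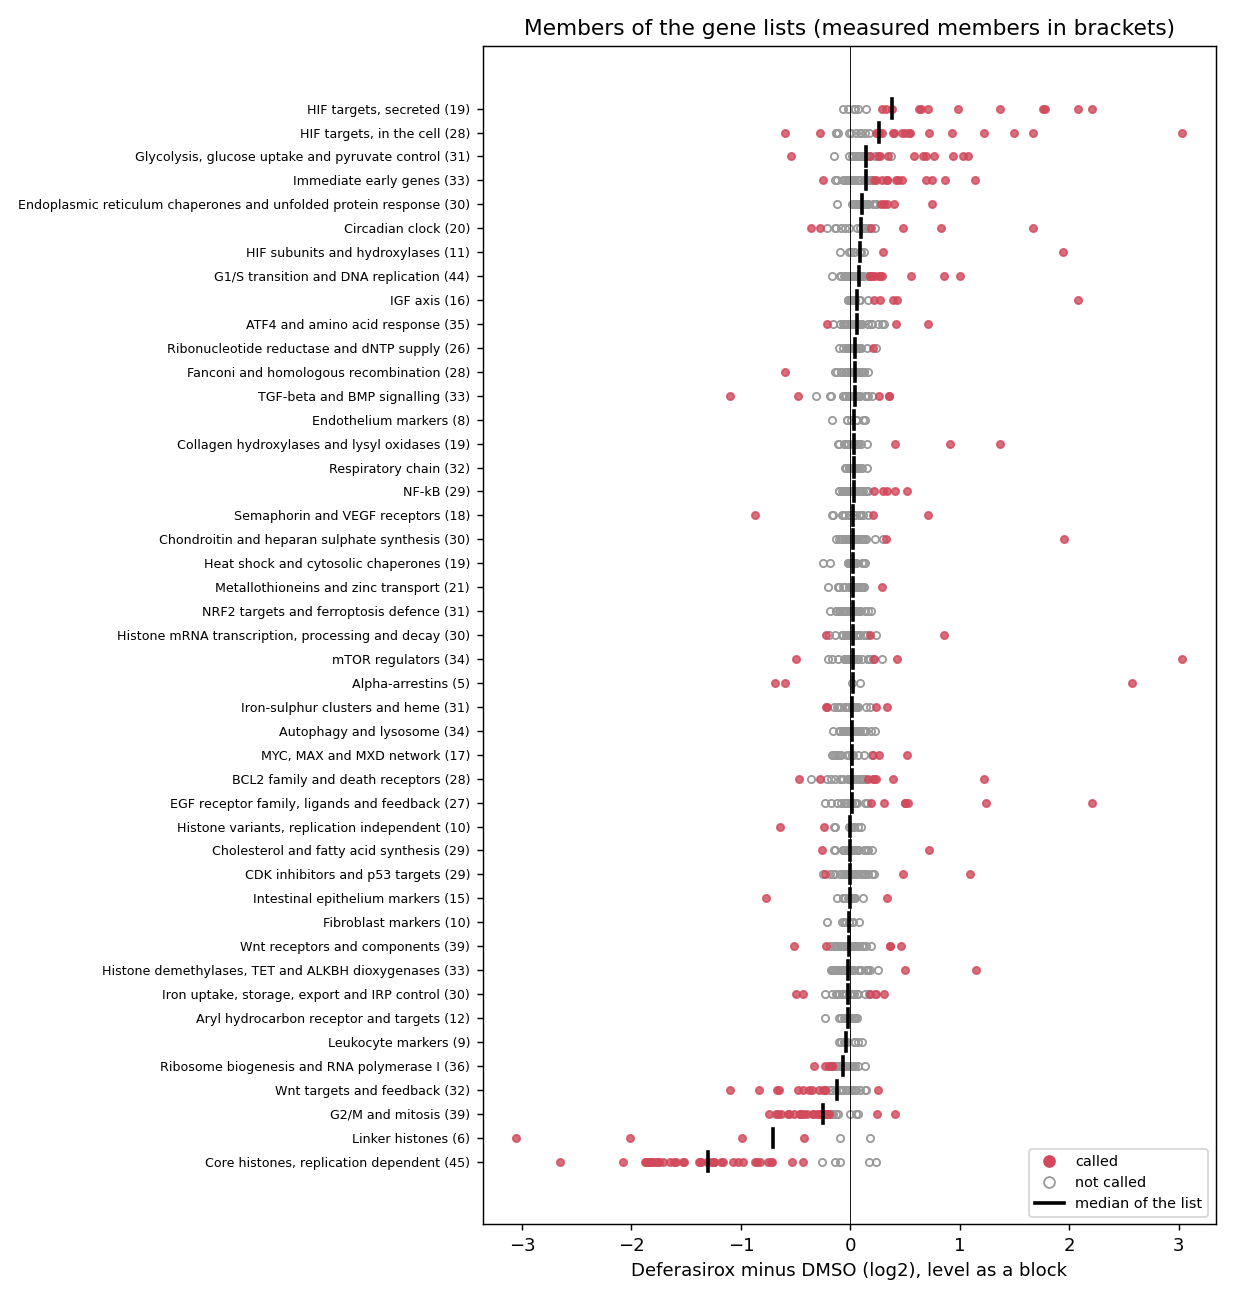
Each line is a gene list, ordered by its median, and each point a measured member at its difference of Deferasirox minus DMSO on the log2 scale (x axis). Filled points were called by limma and black ticks are medians. Core histones lie lowest with a median of -1.30 and secreted HIF targets highest with 0.38, while most other medians lie near 0.00.

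Among the 5 alpha-arrestins measured, ARRDC3 rose while ARRDC4, a regulator of glucose uptake like TXNIP, fell by 0.69 (SE 0.08). Of 34 mTOR regulators 11.8% were called, against 5.84% of all genes. The 3 that rose were DDIT4, the insulin receptor substrate IRS2 (0.42) and the GTPase gene RRAGD (0.21), and SESN3 fell by 0.50. The RRAGD call was lost without Deferasirox 2 (adjusted p = 0.053, limma) and that of SESN3 without any of 4 arrays (up to 0.095). Of 27 genes around the EGF receptor, 7 rose and 0 fell (25.9% called). TGFA, a ligand of that receptor, read 8.88, 7.76, 7.69 and 7.57 in DMSO and 9.03, 9.02 and 8.83 in Deferasirox (1.24, SE 0.07), with DMSO 1 inside the range of the treated arrays. HBEGF, a second ligand, rose by 0.50 (SE 0.09), and the ERK phosphatases DUSP5 and DUSP6 by 0.53 and 0.50. EGFR itself differed by 0.15 (95% interval 0.06 to 0.24) and was not called (adjusted p = 0.072, limma). Among 33 immediate early genes (39.4% called) 12 rose, led by the AP-1 genes FOSL2 (1.14, SE 0.12) and JUN (0.75, SE 0.05), the kinase gene SGK1 (0.86) and the phosphatase gene DUSP1 (0.69), and SRF, which activates many of them, fell by 0.25. The 12 became 7 without Deferasirox 3. In the insulin-like growth factor list, 5 of 16 rose (31.2%), and the count was 2 or 3 without each array but DMSO 1. CDKN1A, the inhibitor p21, rose by 0.48 (SE 0.06) and the antiproliferative gene BTG1 by 1.10 (SE 0.11), the 2 called higher of 29 CDK inhibitors and p53 targets. In either direction 10.3% of that list were called, against 5.84% of all genes.

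Further genes of the 20 largest rises lie outside these pathways. CHST15, a sulfotransferase of chondroitin sulphate E, read 8.90, 8.48, 8.41 and 8.32 in DMSO and 10.46, 10.44 and 10.34 in Deferasirox, a rise of 1.95 (SE 0.10). It and CHST1 (0.32) were the 2 of 30 sulphated glycan genes called (6.67%, close to the 5.84% of all genes). The call of CHST1 was lost without Deferasirox 2, Deferasirox 3 or DMSO 4 (adjusted p up to 0.096, limma). MOB3A, a kinase regulator, read 10.15, 9.96, 10.00 and 9.86 in DMSO and 11.44, 11.36 and 11.46 in Deferasirox (1.42, SE 0.08). The kinase gene HUNK rose by 1.25 (SE 0.08), SYTL3, a vesicle tethering gene, by 1.18 (SE 0.13), and LBH, a transcriptional cofactor, by 1.34 (SE 0.12), with LBH at 1.56 in the middle and 1.13 in the low level.

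Wnt target genes, which are active in SW480 cells because APC is truncated, mostly fell where they changed. Of 32 measured, 11 fell and 1 rose (37.5% called, against 5.84% of all genes, median -0.12). BAMBI, a decoy receptor of TGF-beta signalling, read 11.75, 10.90, 10.80 and 10.34 in DMSO and 9.71, 9.78 and 9.17 in Deferasirox. All treated arrays lay below all DMSO arrays, and the fall was 1.10 (SE 0.06, adjusted p = 2.4e-06 by limma), but the difference of -1.39 without a block was not called (adjusted p = 0.43). The growth factor gene FGF20 fell by 0.83 (SE 0.08), the intestinal stem cell receptor LGR5 by 0.67 (SE 0.07) and the homeobox gene PROX1 by 0.65 (SE 0.06). AXIN2, a feedback inhibitor of the pathway, fell by 0.25 (SE 0.06, adjusted p = 0.044, limma), a call lost without any of 6 arrays (up to 0.19). SOX9, a further target, rose by 0.25. CCND1 differed by 0.08 (95% interval 0.00 to 0.17) and MYC by -0.14 (-0.27 to -0.01), and neither was called. Without Deferasirox 3 or DMSO 4 the 11 became 6. Of 39 receptors and other components (12.8% called) 3 rose, among them TCF7L1 (0.46) and WNT11 (0.36), and 2 fell, BCL9 by 0.52 and TLE3 by 0.22 (call lost without Deferasirox 3, up to 0.081). CDX2, the homeobox gene that maintains intestinal identity, read 9.30, 9.26, 9.41 and 8.79 in DMSO and 8.36, 8.70 and 7.99 in Deferasirox, with no overlap, and fell by 0.77 (SE 0.09). It was the 1 intestinal marker of 15 that fell, while KRT19 rose by 0.33 (call lost without 6 of the 7 arrays, adjusted p up to 0.13). Other falls outside the histones, named after their values were seen, were OXGR1 (-1.04, SE 0.12), FAM111A (-0.86, SE 0.10), EXPH5 (-0.81, SE 0.07) and ARID5B (-0.72, SE 0.06).

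Of 30 chaperones and unfolded protein response genes 5 rose and 0 fell (16.7% called, against 5.84% of all genes). HERPUD1, a membrane protein of endoplasmic reticulum degradation, rose by 0.75 (SE 0.06) and the chaperone HSPA5 by 0.28 (SE 0.04), while DDIT3 differed by -0.06 (95% interval -0.24 to 0.12) and ATF3 by 0.08 (-0.14 to 0.30). The 5 became 3 without Deferasirox 3 or DMSO 4. In the amino acid response list of 35 (8.57% called), 2 rose, STC2 and the transporter gene SLC38A2 (0.42), and 5 without DMSO 1. In the same list CTH fell by 0.21 (call lost without 6 of the 7 arrays, adjusted p up to 0.085, limma). None of 31 NRF2 targets and ferroptosis genes was called, with NQO1 at -0.04 (-0.11 to 0.04) and HMOX1 at -0.08 (-0.21 to 0.05). None of 12 genes of the aryl hydrocarbon receptor list was called either, with CYP1A1 at -0.11 (-0.28 to 0.06) and CYP1B1 at 0.04 (-0.11 to 0.20). Of 21 metallothionein and zinc genes 1 was called (4.76%), MT1X, which rose by 0.29 (call lost without 6 of the 7 arrays, adjusted p up to 0.16, limma). MT2A differed by 0.04 (-0.04 to 0.11). The 19 heat shock genes and the 34 genes of autophagy and lysosomes had 0 calls. Of 29 NF-kB genes 5 rose (17.2%), led by the inhibitor TNIP1 (0.52, SE 0.07), and the 5 became 3 without Deferasirox 3 and 2 in the middle level alone. Among these, ICAM1 read 10.67, 7.91, 7.94 and 8.07 in DMSO and 8.29, 8.32 and 8.52 in Deferasirox: it rose by 0.40 (SE 0.06) once the level was a block, and each treated array exceeded the DMSO arrays of its own level, but its difference was -0.27 without a block, where DMSO 1 counts like any other array.

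In the circadian clock list of 20 (30.0% called, against 5.84% of all genes), 4 rose, with BHLHE40, the repressor NFIL3 (0.82, SE 0.14) and PER2 (0.48, SE 0.05) leading, and BMAL1 (-0.36, SE 0.07) and BHLHE41 fell. The call of BMAL1 was lost without Deferasirox 2, Deferasirox 3 or DMSO 4 (adjusted p up to 0.074, limma). Among 28 genes of the BCL2 family and death receptors (25% called) 5 rose, led by BNIP3L and the decoy receptor TNFRSF10D (0.39), and CASP8, the initiator caspase of death receptors, fell by 0.47 (SE 0.05) along with BIRC5 (-0.28; call lost without Deferasirox 2 or Deferasirox 3, up to 0.061). The count of 5 was 2 or 3 without each array but DMSO 1. Of 36 genes for ribosome biogenesis and RNA polymerase I 5 fell (13.9%), led by RRS1 (-0.33, SE 0.05), and 1 to 3 without each single array. The MYC antagonist MXD1 rose by 0.52 (SE 0.07). The Fanconi gene FANCF fell by 0.60 (SE 0.06), the 1 gene of 28 called in the homologous recombination list (3.57%, against 5.84% of all genes). Of 18 semaphorin and VEGF receptor genes (16.7% called), SEMA4B rose by 0.71 (SE 0.06) and NRP2, a co-receptor of both ligand families, fell by 0.88 (SE 0.07). PLXND1, a semaphorin receptor gene, was also called higher (0.20), a call lost without any of 5 arrays (adjusted p up to 0.13, limma).

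All 171 called genes selected for description had the same sign in the middle level, with 2 arrays on each side, and in the low level, with 1, as had all 1074 called genes, which were called on these arrays. For 35 of the 44 called core and linker histone genes the fall was larger in the low level, with a median of -1.53 against -1.32 in the middle level, and for 21 of 27 HIF targets called higher the rise was larger there (0.76 against 0.65). H1-5 differed by -3.85 in the low and -2.71 in the middle level. With 1 array a side in the low level these differences between levels have no replicate check. The share over all called genes was not counted, so larger low-level differences are not shown to be particular to these lists.

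**Figure D4:**
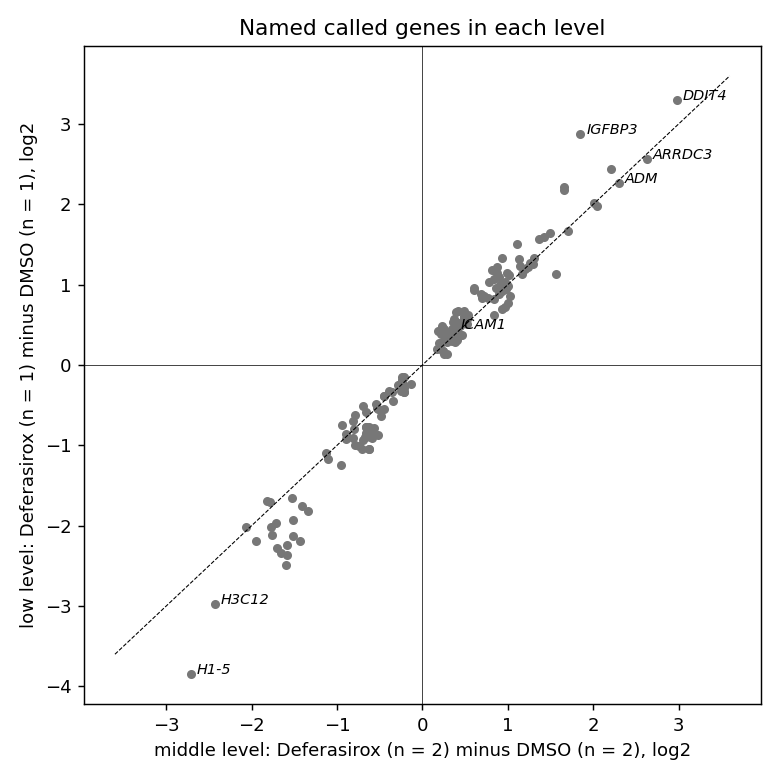
Each point is a called gene selected for description, at its difference of Deferasirox minus DMSO in the middle level (x axis, log2, 2 arrays each) and in the low level (y axis, log2, 1 array each), and the dashed line marks equal differences. All 171 points lie in the quadrants of equal sign, and the histone genes H1-5 and H3C12 lie below the line, at -3.85 and -2.98 in the low level.

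Deferasirox was also set directly against DFO, the other clinical chelator, as the difference of these 2 group means in the same fit over all 13 arrays. The doses differed, 50 mM and 100 mM by the labels, so that the values describe these incubations and not the compounds at a matched dose. Of 18404 genes 8 were called (0.0435%), 5 higher and 3 lower under Deferasirox, and 1847 had an unadjusted p under 0.05 by limma. DDIT4 differed by -0.05 (95% interval -0.31 to 0.21), ADM by 0.06 (-0.20 to 0.32), EGLN3 by -0.04 (-0.27 to 0.20), H1-5 by 0.16 (-0.33 to 0.64) and H3C12 by 0.25 (-0.02 to 0.51), none of them called. Other histone genes, named after their values were seen, differed by more: H2AC15 by 0.52 (0.21 to 0.82), H2BC7 by 0.44 (0.17 to 0.71) and H2AC20 by 0.42 (0.23 to 0.60). Of the 51 core and linker histone genes, 47 had a positive difference from DFO (92.2%, against 51.2% of all genes) and 16 an interval wholly above 0 (31.4%, against 5.5% of all genes). Their median was 0.18 against 0.00 over all genes, and 0 of them were called (smallest adjusted p = 0.14, limma). NRP2 was the lowest, by -0.73 (SE 0.07, adjusted p = 0.0064, limma). Its signals were 9.02, 8.81, 8.81 and 8.71 on the DFO arrays and 8.10, 8.23 and 7.85 on the Deferasirox arrays, with no overlap, against 8.71 to 9.18 in DMSO. DHRS3, a retinal reductase gene, differed by -0.60 (SE 0.06), with 8.89, 8.88, 8.77 and 8.64 under DFO and 8.18, 8.21 and 8.01 under Deferasirox. Set against DMSO it was at -0.21 under Deferasirox (not called, adjusted p = 0.082 by limma) and at 0.39 under DFO. The choline kinase gene CHKA differed by -0.48 (SE 0.04). The 5 genes higher under Deferasirox were SLFN5 (0.63, SE 0.06), IVNS1ABP (0.48, SE 0.06), PCDHB5 (0.43, SE 0.06), the clock gene PER2 (0.42, SE 0.05) and PAX8-AS1 (0.35, SE 0.04). PER2 read 8.73, 8.45, 8.29 and 8.21 under DFO and 8.79, 8.82 and 8.60 under Deferasirox, which overlap only through DFO 1, the array of the high level. HSPA5 was higher by 0.24 (0.16 to 0.32), just short of the threshold (adjusted p = 0.056, limma), and LGR5 lower by 0.34 (-0.50 to -0.17, adjusted p = 0.17). The count of 8 became 0 without Deferasirox 1, Deferasirox 3 or DFO 4, 2 without Deferasirox 2, 0 without a block, and 0 in a fit to the 7 arrays of these groups alone (1681 genes at an unadjusted p under 0.05 by limma).

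**Figure D5:**
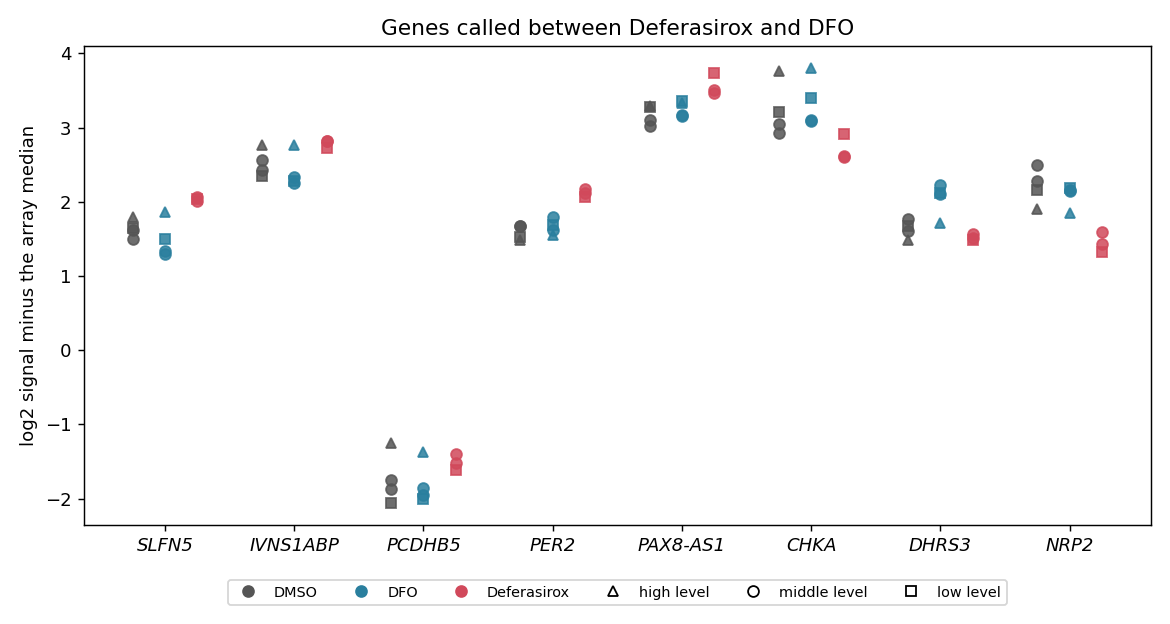
The 8 genes called between Deferasirox and DFO (x axis), as log2 signal minus the median of the array (y axis), on the DMSO (grey), DFO (blue) and Deferasirox (red) arrays, with the shape giving the level. For NRP2 the 3 Deferasirox arrays lie below all other arrays, and for PER2 they lie above them, while the high-level arrays of SLFN5, PCDHB5 and CHKA stand apart from the rest of their groups.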

How the data were processed

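Values are the deposited series table of log2 signals, 1 per transcript cluster and array. Per the submitters' processing notes the authors used GCRMA and limma, and the version, order and step of each are not given in the sources used here. Because the 3 array levels remain in the deposited log2 values, whatever the authors' normalization was, between-array shifts enter every comparison that is not blocked. Scanner files were not used here. Precision is limited by how few arrays there are.

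Of 32321 transcript clusters, 19158 were named by 1 symbol of the platform annotation, 1388 by several and 11775 by none. By Entrez identifier 19128 matched the RefSeq gene table of GRCh38.p14, with 0 symbols updated. For the 637 genes with more than 1 cluster the one with the highest mean was kept, leaving 18404 genes, with no filter on dim ones. Group and level (neighbouring array medians over 0.05 apart) were fitted to all 13 arrays with limma 3.58.1 in R 4.3.3 (statmod 1.5.0) and empirical Bayes moderation, with 7 residual degrees of freedom. Genes were called where the p adjusted over all of them after Benjamini and Hochberg lay under 0.05, and intervals are 95% intervals of that fit, not adjusted.

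The arrays compared, the 45 gene lists (1185 genes, 1087 measured) and the naming rule were chosen with earlier results of these data known, so no list is independent evidence. The rule named the 20 highest and 20 lowest called genes that did not overlap in either shared level, up to 4 called members of each list, a set of genes fixed by name, and the 8 highest and 8 lowest called genes against DFO. List members past the first 4, and OXGR1, FAM111A, EXPH5, ARID5B, BORA and FLVCR2, were chosen after their values were seen. Lists carry counts and medians and no set test. Alternatives were other blocks, scalings, gene filters and moderation, fewer arrays, and each array left out. The fit was tested on simulated data of 18404 genes for Deferasirox against DMSO, drawn from this same fit with independent normal errors. It recovered 19 of 50 genes changed by 0.25, 48 of 50 by 0.5 and all 50 by 1 or by 2, with 7 false calls. These counts therefore hold under the assumptions of the fit, and whether the level is the right block for the real arrays was not tested there.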

Additional observations from a re-analysis of the deposited data

Results flagged for a closer look

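Signals were checked for a DMSO array far from the other 3, after the median of each array had been subtracted. Of 187 genes checked, 22 had such an array, by Dixon's test, which flags about 1 in 20 groups by chance. In 21 of them it was DMSO 1, the array of the high level, so that subtracting 1 median does not bring this array to the rest for these genes. The largest gap was that of ICAM1, an adhesion molecule, at 3.48 above the array median on DMSO 1 against 1.25 to 1.53 on the others, followed by HBEGF at 2.51 against 1.36 to 1.43. Among mitosis genes DMSO 1 was high for AURKA (4.87), BORA (2.24), DEPDC1 (2.98) and KIF18A (3.18). Among genes that rose under Deferasirox it was high for BTG1 (2.23), EGLN3 (2.69), FGD5 (2.57), IGF1R (3.23), SEL1L (2.81), SLC38A2 (4.54), SMAD3 (3.48), STEAP3 (1.18) and TGFA (1.69), and low for MOB3A (2.96 against 3.29 to 3.32). Among genes that fell it was high for GADD45A (1.93), H2AC20 (4.72), ID2 (5.15), RRS1 (4.03) and ZNF480 (2.83). The calls of IGF1R and GADD45A were each lost without 6 of the 7 arrays (adjusted p up to 0.12 and 0.13, limma). ITGA5 was low on DMSO 4 (2.37 against 2.69 to 2.74).

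Transcript clusters without a single gene symbol entered none of the comparisons above. When all clusters were tested together, 119 of 13163 such clusters were called by limma, 37 higher and 82 lower under Deferasirox, with differences from -1.94 to 1.45.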

How the results depend on the processing

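The count of 1074 genes called for Deferasirox against DMSO was 43 without a block, 170 with arrays centred on their median and no block, 186 after quantile normalization with no block, 656 with the arrays of the compared groups alone and 326 with the middle level alone. It stayed within 1.5 times with the level as a random block (983), quantile normalization and the level (1126), the 25% of genes with the lowest signal left out (1361), the mean of all clusters of a gene (1050), all clusters tested together (782) and trended, robust moderation (1531). Leaving out each array in turn gave 546 to 986. With no block all genes together lay at a median of -0.15, and ICAM1 below is given relative to it, while differences without a block in the report (-0.27 for ICAM1) are as fitted. Relative to the median of -0.15, 1068 of the 1074, which were called on these same arrays, kept their sign without a block. As fitted, some called rises lay below 0 without a block, among them ICAM1 (-0.27), SLBP (-0.07) and TFRC (-0.01). Outside the HIF target and histone lists, each list had 0 or 1 member called in either direction without a block. Of the 171 called genes selected for description, 36 were called without a block, 116 in the middle level alone, 137 without Deferasirox 3 and 144 without DMSO 4. ICAM1 reversed to -0.121 without a block, -0.113 with centred arrays and -0.072 after quantile normalization with no block. For Deferasirox against DFO the 8 calls became 0 without a block, with the compared groups alone, with the middle level alone, with centred arrays and after quantile normalization with no block (44, 1681, 1264, 339 and 421 genes at an unadjusted p under 0.05 by limma). They became 20 with the random block, 35 without the 25% of genes of lowest signal and 116 with trended, robust moderation, and 0 to 10 when single arrays were left out. The causes were not tested.

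With the replicate number as a block in place of the level (replicate block), 127 genes were called for Deferasirox against DMSO, 28 higher and 99 lower (22.0% higher against 48.5% with the level), and 0 against DFO (2823 at an unadjusted p under 0.05 by limma). All genes together then lay at a median of -0.24, and relative to it ICAM1 was at -0.230 and ISCA1 at -0.029, both reversed. Deviations of same-numbered Deferasirox and DMSO arrays from their group means correlated at -0.058, 0.333 and -0.324 across genes, so the numbers were not taken as pairs. Among the DMSO arrays, Deferasirox 1 and 2 correlated best with DMSO 2 (0.378 and 0.333) and Deferasirox 3 with DMSO 4 (0.667), each an array of the same level. The levels were set from the medians of these same values, so these correlations are no independent check of the level as a block.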

Other observations

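Some short non-coding RNAs without a place in the lists were called as well, and are named after their values were seen. RNU5E-1, a spliceosomal U5 RNA gene, read 9.77, 8.46, 8.02 and 7.93 in DMSO and 9.10, 9.32 and 8.65 in Deferasirox. The groups overlap through DMSO 1, and the fitted rise was 0.80 (SE 0.17; limma, adjusted p = 0.016). That call was lost without Deferasirox 2, Deferasirox 3 or DMSO 4, with adjusted p values up to 0.076. The hypoxia-linked microRNA gene MIR210 differed by 0.09 and was not called, while MIR503 fell by 0.41.

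The largest difference that was not called belonged to CDK11B, a cyclin-dependent kinase gene, at 1.67 (95% interval 0.43 to 2.91; limma, adjusted p = 0.13). Its log2 signals spread from 1.81 to 4.91 on the DMSO arrays and from 4.21 to 5.03 on the Deferasirox arrays.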
